A study of Arabidopsis thaliana with 21 samples.

Results

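The transcripts of the mitochondrial genome were followed in rosettes of Arabidopsis thaliana Col-0 during light transitions. Members were all loci with an ATMG identifier that held at least 30 counts summed over the 21 libraries, which left 121 of 152 mitochondrial loci, among 33341 loci in all. Within the mitochondrial loci they were chosen by the summed count, with no other measured value in the rule. Of the other loci, 6 held no count and 25 held 1 to 29 counts. Just inside the threshold lay ATMG00400 with 31 counts and ATMG00850 with 33, and just outside it ATMG00940 and ATMG00450 with 29 each and ATMG00550 with 28. Of the 121 members, 86 passed the filter on low counts and were tested, and 35 did not.

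Whole rosettes of 21-day-old soil-grown plants, raised at 22 °C in a 16/8 h day, were collected in 7 groups of 3 libraries. The high-light groups T2H, T5H and T8H received 500 µE for 2, 5 or 8 h. The standard-light groups T2L, T5L and T8L received 100 µE, the growth intensity, for the same times. The dark group T0D was taken before lights-on. All groups shared the Col-0 background, the growth regime and a night in sealed chambers. The triplicates are called biological, but the labels do not say how many plants each pooled, and p-values cover only the spread between the libraries. The series concerns enzymes that are degraded under high light and the regulation of their transcripts.

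The plant mitochondrial genome encodes a small part of the respiratory chain, namely subunits of complex I (nad genes), complex III (cob), complex IV (cox genes) and the ATP synthase (atp genes), together with factors for cytochrome c maturation (ccm genes), some ribosomal proteins, ribosomal RNAs and transfer RNAs. The remaining subunits, the RNA polymerases and nearly all RNA-processing factors are encoded in the nucleus and imported. Plant mitochondrial transcripts are spliced, trimmed and edited from C to U after transcription, and their levels are known to depend strongly on RNA stability. In leaves, mitochondria respire in the dark and also work beside photosynthesis in the light, where they take part in photorespiration.

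The loci were sorted into 14 loci with parts of complex I genes, 1 of complex III, 3 of complex IV, 6 of the ATP synthase, 5 of cytochrome c maturation, 7 of ribosomal proteins, 2 of a maturase and a translocase, and 3 ribosomal RNAs, 41 loci in all. Of these, 40 were members. The exception was matR (ATMG00520), which encodes a splicing maturase and held 0 counts in every library. Its span lay wholly inside the nad1 part ATMG00516, of which it covered 52.7%, and reads on more than 1 feature had not been counted. The other 81 members were outside these lists and included 18 loci with transfer RNA names, of which 10 were tested. Among them the trnF loci ATMG09740, ATMG00790 and ATMG00340 are annotated as pseudogenes, and only ATMG09740 of these was tested. In all, 62 members had no match in RefSeq.

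Sequence identity with the nucleus decides how a mitochondrial count can be read, so 3 sequences are shown first. RefSeq (TAIR10.1) holds a mitochondrial insertion on nuclear chromosome 2, here taken as bases 3244581 to 3503476 with 136 loci. The coding sequence of atp9, the membrane-ring subunit of the ATP synthase, lies at chrM:270961-271185 on the minus strand and recurs without a difference at chr2:3251856-3252080 on the minus strand. The capitals mark its 5 annotated C-to-U editing sites, and an unedited read of this stretch has the same letters in both genomes.
atp9 coding sequence: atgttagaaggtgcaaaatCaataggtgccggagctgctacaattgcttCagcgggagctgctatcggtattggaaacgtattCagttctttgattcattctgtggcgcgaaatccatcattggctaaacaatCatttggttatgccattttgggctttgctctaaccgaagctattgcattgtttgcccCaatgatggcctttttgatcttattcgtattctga
The initiator methionine transfer RNA trnfM(CAT), which was higher in light than in darkness (below), lies at chrM:171570-171643 on the minus strand and recurs at chr2:3462078-3462151 on the plus strand. The capitals mark its anticodon. With 74 bases it is shorter than a 75-base read.
trnfM(CAT): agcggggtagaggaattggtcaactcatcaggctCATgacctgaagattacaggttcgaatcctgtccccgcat
The last sequence is a window of ccmFN1, a cytochrome c maturation gene that was lower in high light at 2 h. It differs from its nuclear copy by 1 base, which is in capitals. This window is an exception, since 94.98% of the 1075 windows of 75 bases in ccmFN1 recur on chromosome 2 without a difference. The mitochondrial window is chrM:316017-316091 and the nuclear one chr2:3297894-3297968, both on the plus strand.
ccmFN1 window, mitochondrial: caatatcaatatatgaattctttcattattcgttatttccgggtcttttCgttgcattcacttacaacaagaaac
ccmFN1 window, chromosome 2: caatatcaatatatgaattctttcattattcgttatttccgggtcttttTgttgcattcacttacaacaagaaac

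The same comparison was made for every 75-base window in the RefSeq spans of the 40 listed loci long enough to hold one. The counted span can differ from the RefSeq span. For atp9 504 bases were counted and 225 compared, and for cox3 1447 and 798. In 15 loci all windows recurred without a difference on a nuclear chromosome, in 14 loci 10% to under 100% did, and in 11 under 10% did. The last set comprised rrn26, rrn18, rrn5, nad9, nad4L, one of the nad5 parts (ATMG00060), cox1, cox2, ccmB, atp4 and rps3, and their counts can be read with the least doubt about the copy. RefSeq annotates 597 C-to-U sites in the mitochondrial genome, and 36 of the 38 listed loci that it codes for protein have at least 1. The count was 51 in ccmB and 0 in cox1.

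Copies on chromosome 2 held counts of their own for 16 listed members. The atp1 copy AT2G07698 held 641254 counts over all libraries, against 48617 at atp1 itself (ATMG01190), which encodes the alpha subunit of the ATP synthase. The cob copy AT2G07727 held 99136 counts against 59672 at cob, and the atp6 copy AT2G07741 held 56308 against 14105 at atp6 (ATMG01170). The order was the other way for atp9, with 77378 counts at AT2G07671 and 246014 at the mitochondrial locus, and for cox3, with 31889 at AT2G07687 and 76153 at the mitochondrial locus. The loci of the insertion together held 1533822 counts, close to the 1608542 counts of the listed mitochondrial protein genes, and from which genome those reads came was not tested.

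**Figure D1:**
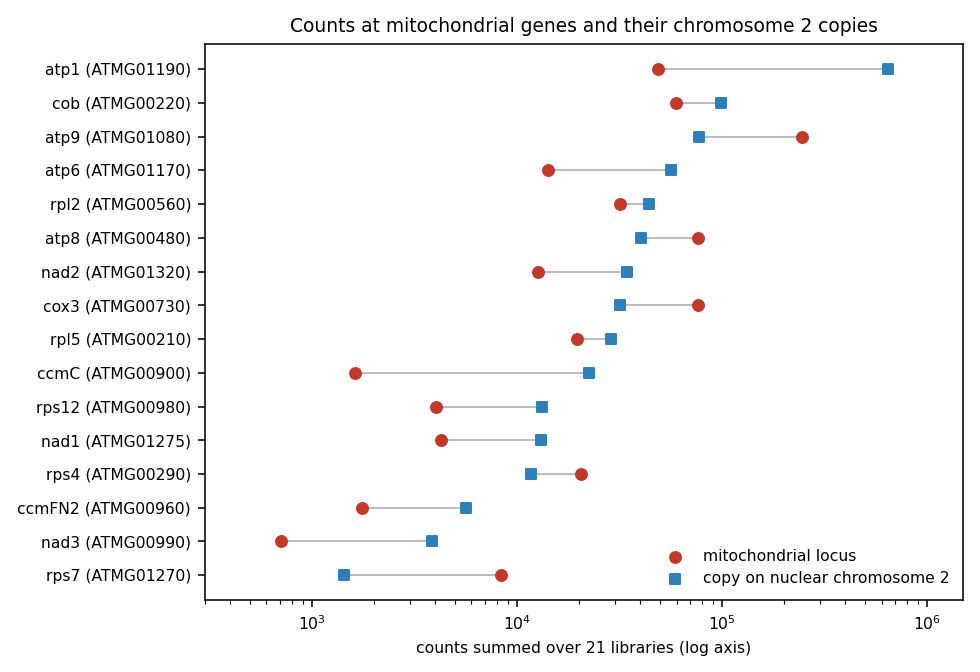
Counts summed over 21 libraries (log axis) for the 16 listed mitochondrial loci with a copy locus on nuclear chromosome 2; circles are the mitochondrial locus, squares its copy or copies. At atp1 the copy held 641254 counts and the mitochondrial locus 48617, whereas at atp9 the mitochondrial locus held more.

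The depth ran from 6545003 counts in T2L replicate 1 to 31449700 counts in T8H replicate 1, the lowest and highest of the 21 libraries. Ribosomal RNA (rRNA) of the nuclear and chloroplast genomes left after depletion took 0.0423% to 32.9% of a library. It was 0.295%, 0.0752% and 4.98% in T2H replicates 1 to 3, 0.0720%, 0.0423% and 32.9% in T5H, and 19.0%, 25.99% and 23.97% in T8H. In standard light it was 17.2%, 13.1% and 4.57% for T2L, 2.07%, 2.85% and 4.55% for T5L, then 4.02%, 8.55% and 3.58% in T8L. In the dark it was 1.91%, 6.96% and 0.133%. At 8 h all high-light libraries lay above all standard-light ones, and T5H replicate 3 stood far from the other T5H libraries. Wilson 95% intervals were computed for the share of all rRNA, mitochondrial rRNA included. They were within 0.0294 percentage points of that share and cover counting error only. Leaf markers summed to 6172 to 28352 CPM (counts scaled to library size), and the 9 root markers to 0 to 0.981 CPM. Against T0D, 1, 2 and 4 of the 4 leaf markers fell in T2H, T5H and T8H, and 4, 3 and 4 in T2L, T5L and T8L. Between high and standard light 2 of them rose at 5 h and 2 fell at 8 h. Markers of dividing, guard and vascular cells also had calls against T0D, among them 2 of 5 dividing-cell markers higher in T2L and, of 3 vascular markers, 1 higher and 2 lower in T5L. Whether this bears on any mitochondrial value was not tested. Fewer cells of a type and less RNA per cell cannot be told apart in whole rosettes.

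Mitochondrial members held 3520726 of 290031107 counts, 0.636% to 3.62% of a library. The 3 mitochondrial rRNAs made up 1625322 of these, between 8.85% and 82.3% of the mitochondrial counts of a library. Without rRNA the mitochondrial share was 0.487% to 0.781%. The large rRNA rrn26 had 535, 343 and 1792 CPM in T2H, 1637, 422 and 4711 CPM in T5H, and 4860, 5939 and 5302 CPM in T8H. It had 4253, 4863 and 2136 CPM in T2L, 1464, 1858 and 2270 CPM in T5L, and 2796, 4277 and 2606 CPM in T8L, and in the dark 1786, 20519 and 545 CPM. The spread inside T2H, T5H and T0D was wide, and T0D replicate 2 lay above every other library.

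**Figure D2:**
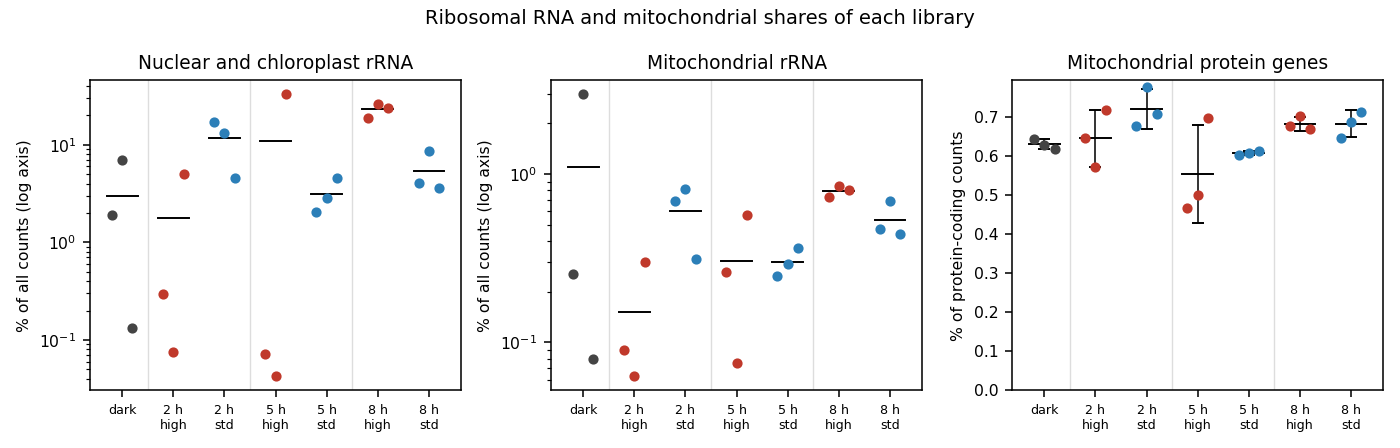
Each point is 1 library, with high light in red, standard light in blue and darkness in grey; horizontal lines are means and, in the right panel, error bars are SD (n = 3). The left and middle panels show rRNA as % of all counts on log axes. The right panel shows the listed mitochondrial protein genes as % of protein-coding counts, from 0.467% to 0.778%. In T2H, T5H, T8H and T5L that share was highest in the library with the most nuclear and chloroplast rRNA, but not in T0D, T2L or T8L.

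Levels are compared between genes as CPM per kilobase of the counted span, as means over the 21 libraries. The highest was atp9 with 1695, followed by rrn26 with 1389 and rrn18 with 1138. The libraries had been depleted of rRNA, so the values of rrn26 and rrn18 are what was left after depletion. Their rank against atp9 and the other genes is therefore not one of levels in the leaf. The unnamed locus ATMG00280 had 1021, and the next protein genes were atp8 with 553, cox1 with 461, atp4 with 404, nad9 with 355, nad4L with 318 and rpl16 with 311. Spans of genes such as nad4 and nad7 include introns, and nad4 had 12.3 CPM per kilobase. The lowest listed protein locus with counts was ccmFN1 with 5.24. The ranges over libraries of the highest loci overlapped, with 484 to 2210 for atp9 and 134 to 7990 for rrn26.

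The first question was whether high light changed mitochondrial transcripts relative to standard light. Few loci were called. At 2 h, 1 of the 86 tested members fell and none rose, against 2.66% of all 19626 loci called, 1.45% higher and 1.22% lower. At 5 h, 1 rose and 3 fell, against 12% of all loci, 7.29% higher and 4.74% lower. At 8 h, 4 rose and none fell, against 15.4% of all loci, 7.79% higher and 7.62% lower. As a share of tested members the called counts were 1.16%, 4.65% and 4.65%. At an unadjusted p under 0.05 in edgeR there were 14, 23 and 10 members at 2, 5 and 8 h. DESeq2 called 2 at 2 h. The median log2 difference of high minus standard light over the members was -0.26 at 2 h, 0.08 at 5 h and 0.05 at 8 h, where the medians of all loci were -0.00, 0.02 and -0.03. Over the 3 times, 9 of the 86 tested members were above standard light every time and 15 below it every time. No share over all loci stands beside these counts or the unadjusted ones, so no direction is read from them.

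**Figure D3:**
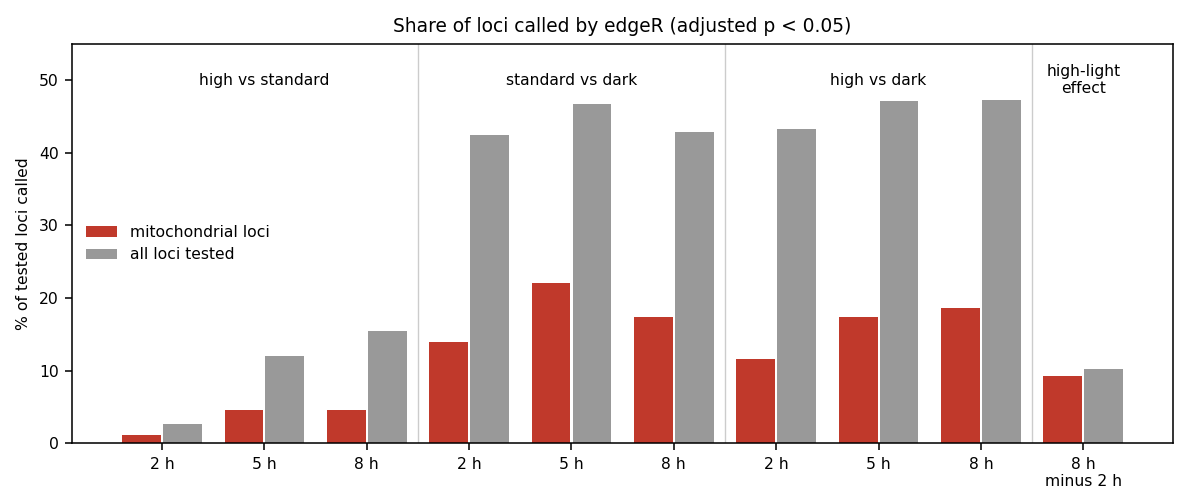
Share of tested loci (%) called by edgeR at an adjusted p under 0.05 in each of 10 contrasts; red bars are the 86 tested mitochondrial loci and grey bars all 19626 loci. In the contrasts with darkness 42.4% to 47.3% of all loci were called, and in each the red bar is lower.

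Among the listed genes the calls were spread over single genes. Of the 14 complex I loci, none was called at 2 or 8 h and 1 fell at 5 h. Of the 3 complex IV genes 1 fell at 5 h, and of the 7 ribosomal protein genes 1 fell at 5 h. Of the 5 cytochrome c maturation genes 1 fell at 2 h. None of the 6 ATP synthase loci, none of the 3 rRNAs, and neither cob nor mttB (a translocase subunit) passed the test at any time. At an unadjusted p under 0.05 in edgeR, 1 ATP synthase locus and 1 rRNA passed at 5 h, and no locus of these lists at 2 or 8 h. The log2 values of cob, which encodes cytochrome b, were -0.49, -0.38 and 0.16 at 2, 5 and 8 h. Outside the lists 46 members were tested, of which none was called at 2 h, 1 rose at 5 h and 4 rose at 8 h.

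At 2 h ccmFN1 (ATMG00830; chromosome M, 231894 to 233042, minus strand, in the files' coordinates, whose build is not stated) fell. It encodes part of the heme lyase for cytochrome c. It had 2.82, 3.79 and 4.98 CPM in T2H, against 8.79, 8.90 and 7.04 CPM in T2L, and the groups did not overlap. The log2 difference was -1.09 (SE 0.29), a fold of 0.469, with an adjusted p of 0.0439 by edgeR. Without T2L replicate 1 or 2 the adjusted p was 0.13 or 0.111, and without T2H replicate 1 or 2 it was 0.177 or 0.125. With the rRNA share as a covariate the difference was -0.75 and the adjusted p 0.278. With only the groups compared the adjusted p was 0.14. On chromosome 2, 94.98% of the windows of ccmFN1 recur without a difference, and from which genome its reads came was not tested.

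At 5 h 3 genes fell. The complex IV core subunit cox1 (ATMG01360; chromosome M, 349830 to 351413, minus strand) had 367, 504 and 664 CPM in T5H, against 796, 814 and 825 CPM in T5L. All 3 high-light libraries were below all standard-light ones, and replicate 3, with 32.9% rRNA, was the nearest to them. The log2 difference was -0.67 (SE 0.21), adjusted p 0.0416 by edgeR. At 8 h cox1 had 628, 588 and 645 CPM in T8H, against 895, 894 and 888 CPM in T8L, again without overlap but with no call. The complex I subunit gene nad9 (ATMG00070; chromosome M, 23663 to 24235, minus strand) had 82.0, 127 and 211 CPM in T5H, against 229.6, 237 and 242 CPM in T5L. Its log2 difference was -0.76 (SE 0.24), adjusted p 0.0442 by edgeR. In nad9 too the T5H libraries were all lower and replicate 3 the highest of them.

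The gene of the large-subunit ribosomal protein rpl5 (ATMG00210; chromosome M, 57774 to 58331, plus strand) had 22.9, 39.6 and 57.9 CPM in T5H, against 76.2, 78.9 and 76.5 CPM in T5L. The groups did not overlap, and the log2 difference was -0.96 (SE 0.22), adjusted p 0.00624 by edgeR. All windows of rpl5 recur on chromosome 2, where the copy AT2G07725 showed -0.25 (SE 0.19) with an adjusted p of 0.415. When the counts of both loci were summed, rpl5 changed by -0.52 with an adjusted p of 0.0797, so that the call rests on reads placed at the mitochondrial locus. For cox1 and nad9 no window recurs in the nucleus.

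The cox1 and nad9 calls were lost without any single T5L library or without T5H replicate 1 or 2, with adjusted p from 0.0998 to 0.216 for cox1 and from 0.099 to 0.238 for nad9. Fitted on the compared groups alone, neither they nor rpl5 nor ATMG00670 was called at 5 h (adjusted p 0.0777 to 0.19). Without T5H replicate 3, in contrast, 22 members were called at 5 h, 6 higher and 16 lower, when 23.2% of all loci were called, and this was 24.2% of the 91 members then tested. The number of mitochondrial calls at 5 h therefore turned on 1 library. With the rRNA share as a covariate 4 members were called at 5 h, 2 higher and 2 lower. The share of all loci called in that fit is given below, with the nuclear genes. The adjusted p of cox1 was then 0.0535 and that of nad9 0.0614.

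The unnamed locus ATMG00670 (chromosome M, 191055 to 191882, minus strand) rose at 5 and 8 h. It had 42.0, 29.7 and 28.5 CPM in T5H, against 19.6, 22.7 and 18.1 CPM in T5L, with a log2 difference of 0.74 (SE 0.18) and an adjusted p of 0.00983 by edgeR. At 8 h it had 28.1, 32.3 and 24.5 CPM in T8H, against 16.4, 18.04 and 21.0 CPM in T8L, with a log2 difference of 0.61 (SE 0.18) and an adjusted p of 0.025. Neither pair of groups overlapped. The 5 h call was lost without T5L replicate 3 (adjusted p 0.0616) or T5H replicate 1 (0.121), and the 8 h call without replicate 1 or 2 of either group (0.0582 to 0.113).

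At 8 h ATMG01200 (chromosome M, 303836 to 304720, minus strand) had 29.4, 35.6 and 24.2 CPM in T8H, against 15.8, 16.2 and 17.1 CPM in T8L, and rose by 0.86 (SE 0.25) on the log2 scale, adjusted p 0.0179 by edgeR. ATMG00500 (chromosome M, 130968 to 131393, plus strand) had 21.0, 19.4 and 26.2 CPM in T8H, against 9.10, 10.52 and 13.5 CPM in T8L, and rose by 1.00 (SE 0.33), adjusted p 0.0381. The neighbouring locus ATMG00490 covers 40.6% of its span on the same strand. The transfer RNA trnfM(CAT) (ATMG00250; chromosome M, 71453 to 71526, plus strand) had 2.92, 2.67 and 3.28 CPM in T8H, against 1.22, 1.20 and 1.35 CPM in T8L, and rose by 1.23 (SE 0.39), adjusted p 0.0353. None of these groups overlapped. At 8 h the rRNA share was also without overlap, at 19.0% to 26.0% in T8H and 3.58% to 8.55% in T8L. With that share as a covariate 6 members were called at 8 h, 3 higher and 3 lower, without a share of all loci beside them. ATMG00500 then had a difference of 0.76 and an adjusted p of 0.062. Leaving out 1 library gave adjusted p from 0.0614 to 0.12 for trnfM(CAT) in all 6 cases. The ATMG00500 call was lost without any library but T8L replicate 3 (0.055 to 0.143). That of ATMG01200 was lost without T8L replicate 1 or 2 or T8H replicate 2 (0.0612 to 0.0871). Without T8L replicate 1, T8L replicate 2 or T8H replicate 2, 0 members were called at 8 h.

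**Figure D4:**
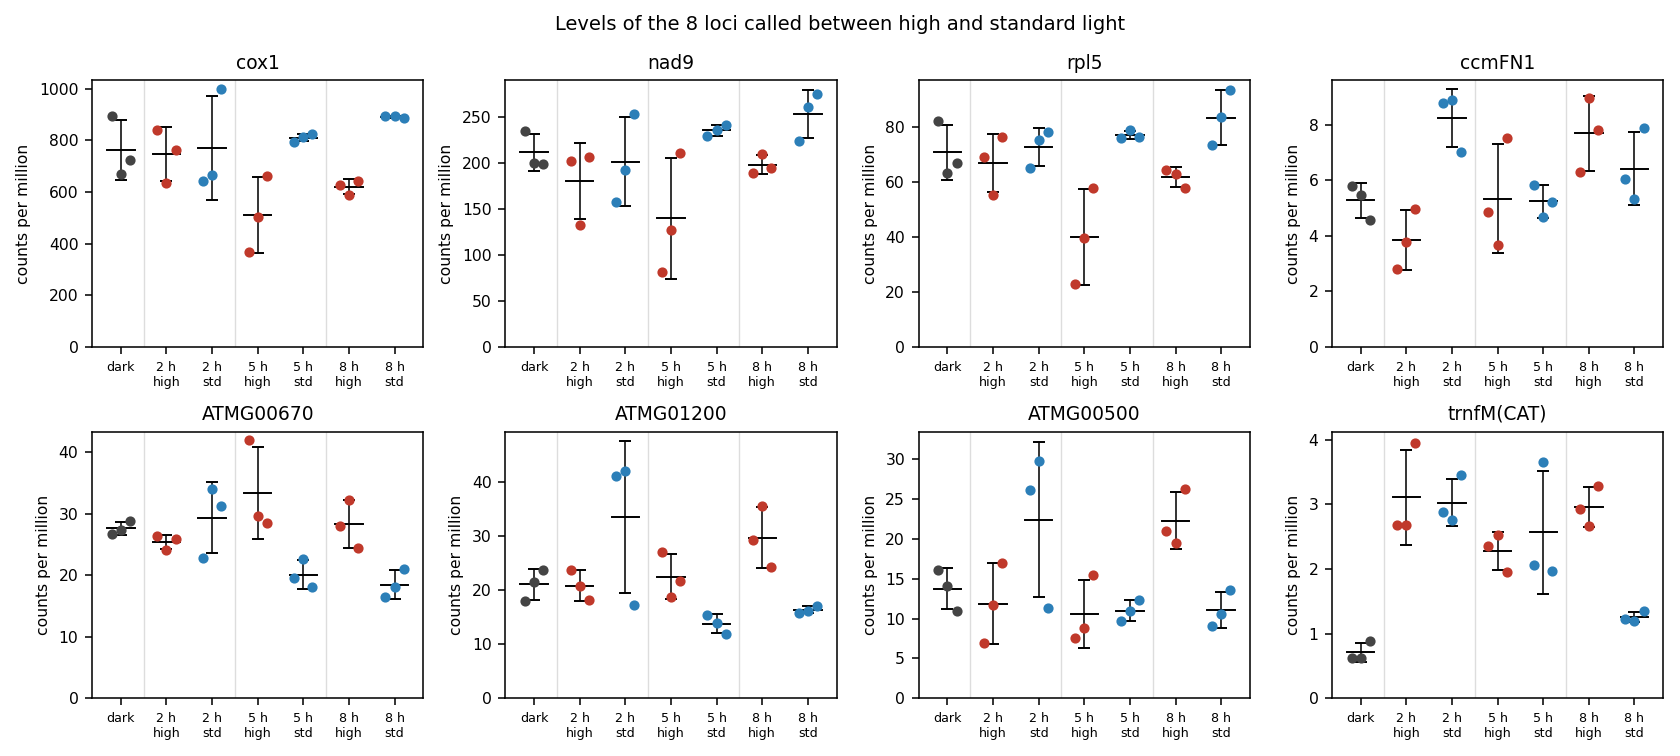
Levels (CPM, linear axes from 0) of the 8 loci called between high and standard light; each point is 1 library (red high light, blue standard light, grey dark), lines are means and bars SD (n = 3). At 5 h the high-light libraries of cox1, nad9 and rpl5 are all below the standard-light ones, and at 8 h those of ATMG00670, ATMG01200, ATMG00500 and trnfM(CAT) are all above them.

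The loci given next had no call between high and standard light, unlike cox1, which is also abundant and fell at 5 h. The atp9 transcript had 851, 616 and 1002 CPM in T2H, against 663, 1062 and 1081 CPM in T2L. At 5 h it had 244, 477 and 1066 CPM in T5H, against 724, 970.0 and 861 CPM in T5L, and at 8 h 945, 947 and 969.6 CPM in T8H, against 861, 958 and 1061 CPM in T8L. The groups overlapped at every time. In T5H, atp9 was 1066 CPM in the library with 32.9% rRNA and 244 and 477 CPM in the others. The unnamed locus ATMG00280 (chromosome M, 77819 to 78151, minus strand) had the same order, with 42.8, 96.5 and 347 CPM in T5H, against 359.7, 387 and 420.3 CPM in T5L. So had cob, with 91.2, 132 and 244 CPM in T5H, against 198, 213 and 196 CPM in T5L. Over all libraries ccmFC, the highest cytochrome c maturation gene, ranged only from 76.3 to 124 CPM, and mttB from 3.65 to 15.8 CPM. Of the other highest unnamed loci, ATMG00040 (chromosome M, 16844 to 17791, minus strand) ranged from 68.8 to 468 CPM. ATMG00690 (chromosome M, 203588 to 204310, minus strand) had 85.0, 77.7 and 104 CPM in T2H, against 118, 174 and 135 CPM in T2L. At 8 h ATMG00690 had 119, 117 and 107 CPM in T8H, against 80.3, 88.9 and 95.5 CPM in T8L, so the order of the groups at 2 h was the opposite of that at 8 h.

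To see whether the whole mitochondrial set moved, the counts of the 38 listed protein loci were expressed as a share of all protein-coding counts. In high light this share averaged 0.646% ± 0.0725 at 2 h, 0.555% ± 0.125 at 5 h and 0.684% ± 0.0178 at 8 h (SD, n = 3). In standard light it averaged 0.722% ± 0.0511 at 2 h, 0.608% ± 0.00501 at 5 h and 0.684% ± 0.0348 at 8 h. In the dark it was 0.632% ± 0.0125. In T2H, T5H, T8H and T5L the share was highest in the library with the most nuclear and chloroplast rRNA, but not in T0D, T2L or T8L. Whether the share depends on the rRNA content was not tested. High minus standard light, averaged over the 3 times, gave a log2 difference of -0.10 with p = 0.155 in an exact two-sided permutation test within times over 8000 arrangements, and 0.155 when adjusted over the 2 measures tested. Within times the differences were -0.16, -0.15 and 0.00. A single library decided the outcome, since without T5H replicate 3 (0.698%, against 0.467% and 0.501%) the difference was -0.16 with an exact p of 0.0148.

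The value also turned on what the share was taken of. Over nuclear protein-coding counts alone the difference was -0.34 (exact permutation p 0.0245), and over all counts with rRNA it was -0.21 (exact permutation p 0.0107). Restricted to genes with under 10% of their windows on nuclear chromosomes it was -0.21 (exact permutation p 0.0035), and with the chromosome 2 copies added it was -0.04 (exact permutation p 0.412). These last choices were made after the data had been seen.

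Chloroplast genes are the most similar set, being likewise organelle-encoded and present in many genome copies. Their protein genes took 22.7%, 28.4% and 47.2% of protein-coding counts in T5H, against 48.1% to 51.1% in T5L. The ratio of mitochondrial to chloroplast protein-coding counts was 0.0148 to 0.0206 in T5H and 0.0119 to 0.0125 in T5L. Over the 3 times the log2 ratio was higher by 0.24 in high light, with p = 0.00675 in the exact two-sided permutation test and 0.0135 when adjusted over the 2 measures. The difference was 0.07 at 2 h, 0.52 at 5 h and 0.12 at 8 h. With genes of under 10% nuclear windows only, it was 0.13 with an exact permutation p of 0.0805.

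The comparison of light with darkness asked which mitochondrial transcripts differed between the light groups and T0D. The dark group was taken before lights-on and the light groups 2, 5 or 8 h into the light. Light and time of day therefore cannot be told apart in these contrasts. The 6 contrasts share the T0D libraries. Calls toward lower levels outnumbered those toward higher levels in every light group but T2L, where they were equal. In high light 1 member rose and 9 fell at 2 h, 3 rose and 12 fell at 5 h, and 4 rose and 12 fell at 8 h, when 43.3%, 47.2% and 47.3% of all loci were called. Over all loci 21.8%, 24.3% and 23.4% were higher and 21.5%, 22.8% and 23.9% lower. In standard light 6 rose and 6 fell at 2 h, 2 rose and 17 fell at 5 h, and 2 rose and 13 fell at 8 h, when 42.4%, 46.7% and 42.9% of all loci were called. Over all loci 21.1%, 22.9% and 21.1% were higher and 21.4%, 23.8% and 21.7% lower. The median log2 differences of members from darkness were -0.20, -0.28 and -0.17 in high light and 0.14, -0.26 and -0.20 in standard light, while those of all loci lay between -0.00 and 0.03. In all, 39 members were called in at least 1 of the 6 contrasts, 29 only lower, 9 only higher and 1, ATMG01200, in both directions.

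Over the 6 contrasts the 7 ribosomal protein genes and the 14 complex I loci gave 17 calls each. Per contrast 28.6% to 57.1% of the ribosomal protein genes and 14.3% to 28.6% of the complex I loci were called. For the ATP synthase loci it was 0% to 33.3% and for the cytochrome c maturation genes 0% to 40%. Of all loci 42.4% to 47.3% were called in these contrasts. Of 7 ribosomal protein genes tested, 2, 4 and 3 fell in T2H, T5H and T8H and none rose. In standard light 1, 3 and 3 fell in T2L, T5L and T8L, and 1 rose in T2L. Of the 14 complex I loci, 2, 3 and 3 fell in high light and 3, 3 and 2 in standard light, and 1 rose, in T2L. Of the 6 ATP synthase loci, 0, 2 and 1 fell in high light and 0, 1 and 0 in standard light. Of the 5 cytochrome c maturation genes 1 fell in each of T2H, T8H, T5L and T8L, and 1, ccmB, rose in T8H.

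The large-subunit protein gene rpl16 (ATMG00080) was highest in darkness. It had 151, 196 and 154 CPM in T2H, 131, 154 and 156 CPM in T5H, and 159, 152 and 139 CPM in T8H. In standard light it had 196, 221 and 163 CPM in T2L, 137, 140.4 and 140.3 CPM in T5L, and 132, 157 and 171 CPM in T8L, against 203, 238 and 230.2 CPM in T0D. Only T2L overlapped with T0D, and rpl16 fell in the other 5 contrasts, with log2 changes from -0.68 to -0.42 and adjusted p from 0.00144 to 0.0408 by edgeR. The 2 h high-light call was lost without T0D replicate 2 (adjusted p 0.12), T0D replicate 3 (0.0937), T2H replicate 1 (0.147) or T2H replicate 3 (0.132), and that of T8L without T8L replicate 1 (0.0651).

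The other genes given here for darkness were chosen after their values had been seen. The small-subunit protein gene rps12 (ATMG00980) had 7.58, 18.5 and 10.4 CPM in T2H, 13.2, 14.9 and 13.5 CPM in T5H, and 14.1, 15.4 and 11.1 CPM in T8H. It had 7.88, 19.6 and 14.9 CPM in T2L, 8.42, 10.8 and 9.67 CPM in T5L and 8.26, 9.40 and 10.2 CPM in T8L, against 19.3, 22.8 and 26.9 CPM in T0D. It fell in all contrasts but that of T2L, with log2 changes of -1.25 in T5L and -1.304 in T8L, and these calls were kept under every alternative run. The complex I subunit nad7 (ATMG00510) fell in the same 5 contrasts, with log2 changes of -0.56, -0.46 and -0.40 in T2H, T5H and T8H and of -0.73 and -0.63 in T5L and T8L. Its calls in T2H, T5H and T8H were lost without T0D replicate 2, with adjusted p of 0.0524, 0.123 and 0.216. The T5H call was also lost without T5H replicate 2, and the T8H call without any T8H library. For rps12 the calls in T2H, T5H and T8H were each lost without at least 1 library.

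The nad1 part ATMG00516, which holds the matR span, fell in all contrasts but that of T5H. It had 109.5, 127 and 109 CPM in T2H, 198, 123 and 105 CPM in T5H, and 94.2, 91.2 and 96.3 CPM in T8H. It had 96.5, 114 and 113 CPM in T2L, 89.9, 123 and 94.2 CPM in T5L, and 84.3, 109 and 120.3 CPM in T8L, against 131, 219 and 208 CPM in T0D. Its log2 changes were -0.69 in T2H and -0.99 in T8H, and -0.79, -0.86 and -0.83 in T2L, T5L and T8L, with adjusted p from 0.000671 to 0.0123 by edgeR. Only in T5H did a light library lie above the lowest dark one, and the T2H call was lost without T0D replicate 2 (adjusted p 0.0698) or 3 (0.0523).

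Few transcripts were higher in the light groups than in T0D. The transfer RNA trnfM(CAT), shown above, had 2.68, 2.69 and 3.95 CPM in T2H, 2.35, 2.53 and 1.95 CPM in T5H and 2.92, 2.67 and 3.28 CPM in T8H. It had 2.88, 2.76 and 3.45 CPM in T2L, 2.07, 3.66 and 1.97 CPM in T5L and 1.22, 1.20 and 1.35 CPM in T8L, against 0.622, 0.631 and 0.885 CPM in T0D. Every light library was above every dark one. It rose by 2.11, 1.68 and 2.04 in T2H, T5H and T8H and by 2.08 and 1.84 in T2L and T5L, with adjusted p from 0.000173 to 0.00164 by edgeR, and its change in T8L was not called. Leaving out any single library changed none of these 5 calls, and only that of T5H was lost under another setting, a fit of the compared groups alone (adjusted p 0.0575).

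The small-subunit protein gene rps4 (ATMG00290) had 108, 124 and 119 CPM in T2L, against 65.7, 33.9 and 43.5 CPM in T0D, and rose by 1.296 (SE 0.33), adjusted p 0.00299 by edgeR. The nad1 part ATMG01120 had 70.0, 88.9 and 77.2 CPM in T2L, against 48.2, 53.2 and 50.5 CPM in T0D, and rose by 0.64 (SE 0.16), adjusted p 0.00264. Both calls were kept under every alternative run. The complex IV subunit cox2 (ATMG00160) had 295, 319 and 303 CPM in T5L, against 217, 133 and 144 CPM in T0D, and rose by 0.89 (SE 0.35), adjusted p 0.0393. In T8L, with 321, 333 and 349.5 CPM, it rose by 1.02 (SE 0.35), adjusted p 0.0216. The T5L call of cox2 was lost without any 1 library but T0D replicate 1 (adjusted p 0.0672 to 0.134), and that of T8L without T0D replicate 2 or 3 or T8L replicate 3 (0.0528 to 0.0868).

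Several dark contrasts leaned on single libraries. The mitochondrial rRNAs rrn26 and rrn18 were called lower in T2H, with log2 changes of -3.097 and -3.24, but T0D ran from 545 to 20519 CPM for rrn26 and from 256 to 11896 CPM for rrn18. Without T0D replicate 2, 2 members were called in T2H and 9 in T5H, against 10 and 15 with it. The unnamed locus ATMG00030 had 9.47, 213.5 and 20.7 CPM in T0D and was called lower in T2H, T5L and T8L. Without T0D replicate 2 its T2H and T8L calls were lost (adjusted p 0.334 and 0.107), and its T5L call was kept. Without T5H replicate 3, 30 members were called in T5H, 2 higher and 28 lower. No share of all loci stands beside this count or those without T0D replicate 2, so no comparison with all loci is drawn from them. With all libraries 17.4% of the tested members were called in T5H, against 47.2% of all loci. ATMG00200 held 28 counts in the dark libraries and 0 in T8H and T2L, which makes it at least 9.84-fold lower in T8H and at least 7.79-fold lower in T2L, taking 3 counts over the group as the floor. The dark libraries held 2, 7 and 19 of these counts, and without T0D replicate 3 the bounds were 4.65-fold and 3.69-fold. Without T8H replicate 1, the deepest library, the bound in T8H was 3.57-fold, and without T2L replicate 2 or 3 that in T2L was 4.59-fold or 4.66-fold. The adjusted p by edgeR was above the threshold in each of these cases (0.0682 to 0.094).

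The share of the listed protein genes was higher in every T8H, T2L and T8L library than in every dark one, and lower in every T5L library. The T2H and T5H libraries overlapped the dark ones. Relative to T0D the mean differed by 0.03, -0.21 and 0.12 on the log2 scale in T2H, T5H and T8H, and by 0.19, -0.05 and 0.11 in T2L, T5L and T8L. The exact permutation p was 0.7, 0.4 and 0.1 in high light and 0.1 in each standard-light group. With 3 against 3 libraries 0.1 is the smallest possible, so no contrast could pass, and adjusted over the 6 contrasts the values were 0.15 to 0.7. The T5H value rested on single libraries, with -0.38 without replicate 3 and -0.09 without replicate 1, and that of T2H was 0.11 without replicate 2 and -0.05 without replicate 3.

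The difference of high minus standard light was then compared between 8 h and 2 h. In this contrast 8 members were called, all with a higher difference at 8 h than at 2 h, when 10.2% of all loci were called, 5.07% higher and 5.14% lower. Those were ATMG01200, ATMG00500, ATMG00690, ATMG01370 and ATMG00670, and the named genes ccmFN1, ccmFN2 and nad4. The rRNA share moved with this contrast. It was 0.0752% to 4.98% in T2H and 4.57% to 17.2% in T2L, but 19.0% to 26.0% in T8H and 3.58% to 8.55% in T8L. With the share as a covariate 1 call was left, that of ATMG01200, whose value was 1.58 against 1.54 without the covariate. The value of ATMG00670 was 0.97 with the covariate and 0.82 without, and those of the other 6 were lower with it, for example 0.79 against 1.05 for ATMG00690 and 0.70 against 1.297 for nad4. The part of the rRNA share in this contrast was not tested. ATMG01200 had 23.7, 20.8 and 18.1 CPM in T2H against 41.2, 42.0 and 17.3 CPM in T2L, beside its 8 h values above.

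Because the rRNA share differed so widely inside groups, its relation with each member was read from the same fit with the share as a covariate, a test added after the data had been seen. Within groups, 18 of 86 members (20.9%) changed with the share, 15 higher and 3 lower in libraries with more rRNA. Of all loci 5.77% did, 2.80% higher and 2.97% lower. T5H replicate 3, with 32.9% rRNA against 0.0720% and 0.0423% in replicates 1 and 2, lay farthest from its group mean. The coefficients were not fitted again without this library, so how far they rest on it was not tested. The median coefficient, in log2 units per doubling of the share, was 0.03 over the members and -0.00 over all loci. The mitochondrial rRNAs had the largest coefficients, 0.51 for rrn18 (SE 0.08, adjusted p 0.00408) and 0.43 for rrn26 (SE 0.09, adjusted p 0.0142). Among protein genes, the nad1 part ATMG01275 had 0.19 (adjusted p 0.00192), ccmC 0.21 (0.00877), nad6 0.15 (0.0415), rps4 0.13 (0.00594), nad4L 0.12 (0.00274), cox2 0.12 (0.0447), atp9 0.11 (0.0416) and cob 0.09 (0.00914). The ribosomal protein gene rpl2 went the other way with -0.10 (adjusted p 0.00833).

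**Figure D5:**
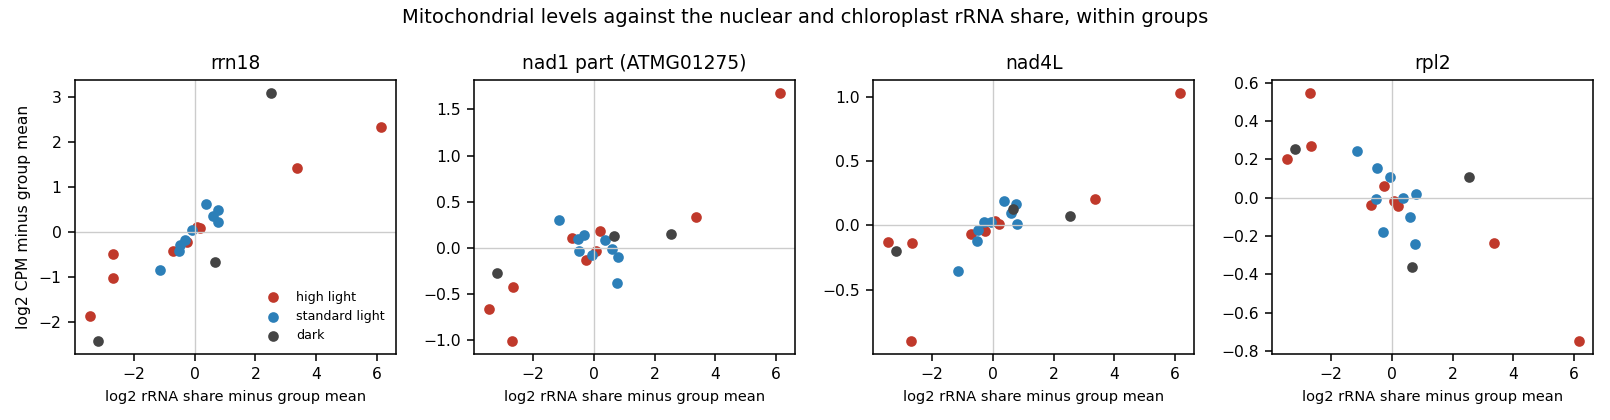
Log2 CPM of 4 members against the log2 share of nuclear and chloroplast rRNA, both as deviations from the mean of the library's group; each point is 1 of 21 libraries (red high light, blue standard light, grey dark). The values of rrn18, the nad1 part ATMG01275 and nad4L are higher in libraries with more rRNA than their group and those of rpl2 lower, with T5H replicate 3 at the far right.

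The nad1 part ATMG01275 shows this in single libraries, with 3.19, 4.08 and 20.7 CPM in T5H, where the rRNA share was 0.0720%, 0.0423% and 32.9%. In the same libraries nad4L had 34.0, 58.0 and 129.6 CPM and rpl2 174, 137 and 71.0 CPM. In T8H, where the share was between 19.0% and 26.0%, nad4L had 123, 127 and 129 CPM and rpl2 69.7, 64.8 and 66.1 CPM. What the rRNA share stands for in these libraries was not tested.

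Nuclear genes for mitochondrial functions were set beside the members. Of 17 tested genes for mitochondrial gene expression, 1, 2 and 5 rose in high against standard light at 2, 5 and 8 h and none fell. This was 5.88%, 11.8% and 29.4% of the list, against 2.66%, 12% and 15.4% of all loci, so that at 5 h the list was at the share of all loci. At 8 h these included the RNA helicase genes PMH1 (AT3G22310) with a log2 change of 1.89 (SE 0.35) and PMH2 (AT3G22330) with 1.45 (SE 0.34), and the organellar RNA polymerase gene AT5G15700 with 1.10 (SE 0.26). Of 54 tested nuclear genes for respiratory subunits, 1 rose at 2 h, 16 rose and 1 fell at 5 h, and 1 rose and 1 fell at 8 h. At 5 h this was 31.5% of the list, against 12% of all loci, and it included SDH1-1, the flavoprotein of complex II, with 0.88 (SE 0.17), and CI51 of complex I with 0.80 (SE 0.16). Without T5H replicate 3, 26 of these 54 rose and 4 fell at 5 h, when 23.2% of all loci were called, and with the rRNA share as a covariate 7 rose and 1 fell, when 8.25% of all loci were called. At the same time cox1 and nad9 were lower, as given above. Without T5H replicate 3, 2 of the 17 gene expression genes rose and 2 fell at 5 h. Of 9 tested genes for alternative respiration, which bypasses the proton-pumping complexes, none was called at 2 or 5 h and 2 fell at 8 h, the dehydrogenase genes NDA2 with a log2 change of -1.501 and NDB2 with -1.08. The 8 h calls were 22.2% of that list, against 15.4% of all loci, and without T5H replicate 3, 2 of 10 then tested fell at 5 h (20%, against 23.2% of all loci).

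The loci whose log2 CPM ran most like the mean of 37 listed mitochondrial protein loci over the 21 libraries were sought among all other tested loci. They were AT2G07687, the cox3 copy, with a Pearson r of 0.883, AT4G02075 with 0.854, AT2G07681, a ccmC copy, with 0.854, AT2G07707, the atp8 copy, with 0.847, and AT5G02575 with 0.846. Of the 5, 3 lie in the chromosome 2 insertion, and the libraries share depth and rRNA content, so these values are a description.

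In the authors' deposited table of their own comparisons, 25 entries from 12 mitochondrial loci were listed, all for contrasts with T0D and none between high and standard light. Those comparisons are labelled glmTreat, an edgeR test against a minimum fold change, whereas the tests above were against no change. A locus missing from the authors' table is therefore not a disagreement with a call given here. In the authors' deposited table trnfM(CAT) was listed as higher in T2H, T5H, T8H, T2L and T5L, with log2 fold changes from 1.65 to 2.11. In the authors' deposited table rps12 was listed as lower in T5L and T8L, and rps4 as higher in T2L.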

How the data were processed

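RNA was sequenced from 21 rosette libraries, which per the labels' protocols were stranded total-RNA libraries depleted of plant ribosomal RNA. The submitters' processing notes name SAMtools 1.3.1, Subread 1.5.0, featureCounts, Trim Galore 0.4.4, FastQC 0.11.7 and edgeR. Raw counts on the reverse strand were deposited for 1 span per locus, introns included, per the file headers. No source used here gives the genome build or the placement of reads that match several sites. Mitochondrial coordinates in the files did not match TAIR10.1, so they are printed as deposited, and TAIR10.1 positions stand only with RefSeq sequences. The authors also deposited log2 RPKM, which was not used, and comparisons with a log2 fold change and an adjusted p-value.

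Members and gene lists were chosen with earlier results of these data known. Counts were scaled by TMM, filtered with filterByExpr and tested over 19626 loci with edgeR 4.0.16 in R 4.3.3 (robust quasi-likelihood, all 21 libraries, 1 coefficient per group). Benjamini-Hochberg adjustment ran per contrast over all loci, and rose or fell means an adjusted p under 0.05. SE was derived from the log2 fold change and F. Replicates of every group differed beyond counting error, and the floor for a count of 0 was 3. Shares were tested by exact permutation within times. Alternatives used DESeq2 1.42.0, limma 3.58.1 (voom), other scalings and filters, the rRNA share as a covariate, a replicate block, sums with copies and each library left out. The fit was tested on simulated data. Values per library are given for the highest member of each list per kilobase, for up to 5 loci per direction called between high and standard light, and for the 3 highest unlisted loci. Nuclear genes were named from fixed lists, at most 3 per direction.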

Additional observations from a re-analysis of the deposited data

Results flagged for a closer look

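The difference between high and standard light itself differed between 8 h and 2 h, by edgeR's test of the interaction, for 8 members. This was 9.30% of the 86 tested members, against 10.2% of all loci, so the members were called at about the general rate. All 8 were higher, where 5.07% of all loci were higher and 5.14% lower. The interaction, which is the log2 difference of high minus standard light at 8 h less that at 2 h, was 1.54 for ATMG01200, 1.92 for ATMG00500, 1.05 for ATMG00690, 4.52 for ATMG01370, 1.73 for ccmFN2 (ATMG00960), 1.34 for ccmFN1 (ATMG00830), 1.297 for nad4 (ATMG00580) and 0.82 for ATMG00670, with adjusted p from 0.00598 to 0.043. ATMG01370 held 0 to 60 counts per library. For ATMG01200 the call was kept under all 22 alternatives run, and with the rRNA share as a covariate its value was 1.58. None of the other 7 was then called, with adjusted p from 0.0512 to 0.308. Their values with the covariate were 0.97 for ATMG00670, 1.20 for ATMG00500, 0.79 for ATMG00690, 2.52 for ATMG01370, 1.42 for ccmFN2, 0.82 for ccmFN1 and 0.70 for nad4, and what the share contributes was not tested. Leaving out T2L replicate 2 gave 2 calls in this contrast.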

How the results depend on the processing

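Of 104 calls of single loci over the 10 contrasts, 32 were kept under all alternatives run and none changed direction. Counts of called members that moved by over 1.5 times follow, and the cause was not tested. The counts in this section stand without the share of all loci called under the same setting. They show how far the calls moved and not whether the members differed from all loci. Between high and standard light at 2 h (1 call) there were 0 with the rRNA covariate, 2 with DESeq2, 11 with no filter on low counts and 0 with only the groups compared. At 5 h (4 calls) there were 10 with DESeq2, 10 with limma voom, 15 with no filter, 1 with only the groups compared and 26 without both T2L replicate 1 and T5H replicate 3. At 8 h (4 calls) there were 7 with DESeq2, 7 with no filter, 26 with only the groups compared and 9 without both libraries. Against darkness, no filter gave 22 in T2L and 23 in T8L. Only the groups compared gave 6 in T2H, 2 in T5H and 26 in T8H. Without both libraries there were 14 in T2H, 32 in T5H, 27 in T8H, 17 in T2L, 22 in T5L and 20 in T8L. For 8 h minus 2 h (8 calls) there was 1 with the covariate, 13 with DESeq2, 13 with no filter, 14 with only the groups compared and 13 without both libraries.

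Leaving out each library in turn gave 0 to 3, 1 to 22 and 0 to 3 calls between high and standard light at 2, 5 and 8 h. It gave 2 to 13, 8 to 30 and 10 to 17 in T2H, T5H and T8H against darkness, 7 to 17, 12 to 19 and 8 to 17 in T2L, T5L and T8L, and 2 to 9 for 8 h minus 2 h. The highest count at 5 h came without T5H replicate 3, as did the 30 in T5H against darkness, and the lowest in T2H came without T0D replicate 2. The 2 h count was 0 without replicate 1 or 2 of T2L or of T2H, and the 8 h count was 0 without T8L replicate 1 or 2 or T8H replicate 2, 1 without T8H replicate 1 and 2 without T8H replicate 3. For 8 h minus 2 h there were 2 without T2L replicate 2, 3 without T2H replicate 1, 4 without replicate 2 of T8L or T8H, and 5 without T2H replicate 2, T8L replicate 1 or 3 or T8H replicate 1. The 5 h count was 1 without T5L replicate 3 or T5H replicate 1, and 2 without T5L replicate 1 or 2. Against darkness there were 8 in T5H without T5H replicate 2, 5 in T2H without T2H replicate 1, 10 in T8H without T8H replicate 1 or 2, 7 in T2L without T2L replicate 2, 12 in T5L without T0D replicate 3 or T5L replicate 1 or 3, and 8 or 9 in T8L without T8L replicate 1 or 3.

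The share difference was -0.18 without both libraries, -0.34 over nuclear protein-coding counts, -0.21 over all counts and -0.21 for genes with few nuclear windows, and -0.164 to -0.067 with each library left out. The ratio to chloroplast counts differed by 0.13 for genes with few nuclear windows and by 0.197 to 0.277 with each library left out. Whether replicate numbers pair the samples cannot be decided from the values, with 3 libraries per group. Same-numbered libraries had correlations of deviations from -0.0986 to 0.086, and differently numbered ones from -0.101 to 0.169. With a replicate block the counts were 1, 6 and 4 between high and standard light, 7, 16 and 15 in high light and 17, 19 and 15 in standard light against darkness, and 7 for 8 h minus 2 h. With the block the exact permutation p of the share was 0.1875 and that of the ratio 0.0195. Reads shared with the chromosome 2 insertion limit most listed loci, and counts below about 1 CPM limit the unlisted ones.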
